A study of Mus musculus with 2 samples.

Results

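The 6 mouse Dlx genes (Dlx1 to Dlx6) were examined as a set, in a search for Myc-Tag ChIP-seq intervals at the Dlx loci of a lymphoma that carries a Dlx5 transgene. They were taken by name from the RefSeq gene table of GRCm38, whose coordinates are those of mm10, and all 6 were found among 21887 protein-coding genes. They lie in 3 linked pairs, Dlx1 and Dlx2 on chromosome 2, Dlx5 and Dlx6 on chromosome 6, and Dlx3 and Dlx4 on chromosome 11. Chromatin immunoprecipitation followed by sequencing (ChIP-seq) maps the DNA fragments that are held by a protein. The material was a T-cell lymphoma of the Lck-Dlx5 mouse, in which the Lck promoter, active in thymocytes, drives a Dlx5 cDNA with a Myc-Tag, a short peptide to which the antibody binds. The series has 2 libraries, 1 Myc-Tag ChIP and 1 Input, and both carry the transgene, so that no sample without transgenic Dlx5 was compared. Mouse age was not given in the sources used here. The strain label is C57BL/6 for the Myc-Tag ChIP and C57BL/7 for the Input. By the labels the material was a primary tumor and the control an Input, while the methods describe a single lymphoma cell line and an IgG control.

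The authors deposited 3477 intervals for the Myc-Tag ChIP and 28 for the Input, and each of the 28 overlapped a Myc-Tag interval. Each interval has a summit with a height, a whole number for which no scaling is described. Heights ran from 9 to 301 with a median of 16, and the tallest summit outside the intervals shared with the Input was 73. The depth of either library is unknown, and a locus without an interval may hold binding below the calling threshold. With 1 library in each group there was no replicate check and no test between groups. All counts below describe this pair of libraries. Among marker genes, 6 of 10 T cell, 3 of 5 B cell, 0 of 3 myeloid and 0 of 2 epithelial genes had an interval in the gene or within 10 kb, against 19.0% of all protein-coding genes. An interval is no measure of expression, so these counts do not check the labelled cell type. Lck, a T cell kinase gene, had 1 interval inside it, with a summit height of 17. Transgene copies carry Lck promoter sequence, and their part in this interval was not tested.

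Dlx genes encode homeodomain transcription factors that bind short AT-rich DNA, classically TAATT. They are the vertebrate relatives of Distal-less and pattern the forebrain, the jaw, the limbs and the skeleton. The genes of a pair are transcribed towards each other and share enhancers, several of which lie in the stretch between them. In the forebrain, Dlx proteins bind such enhancers, including those of other Dlx genes. Dlx5 is normally not expressed in developing T cells.

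The transgene and the loci are shown first by sequence. The oligonucleotides used to clone the tagged Dlx5 cDNA are shown because they define the protein that was immunoprecipitated. The capitals of the forward oligonucleotide mark the start codon. Those of the reverse oligonucleotide mark the reverse complement of the stop codon TAG, which follows the Myc-Tag codons, so the tag is at the carboxyl end.
Dlx5 cloning forward: ATGacaggagtgtttgacagaaga
Dlx5 cloning reverse: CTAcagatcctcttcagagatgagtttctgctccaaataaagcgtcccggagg
The forward oligonucleotide was also used for genotyping.

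Promoters were read from a RefSeq table for GRCm38.p6 that gives 250 bases before and 50 bases after a gene start, and 2 of the 6 Dlx genes, Dlx1 and Dlx2, had an entry. Of 4 noncoding genes named after a Dlx gene, 3 had one. The promoters of Dlx1 (chr2:71529195-71529494, plus strand, 69.3% GC) and Dlx2 (chr2:71546705-71547004, minus strand, 66.3% GC) are shown as the starts of the pair that had intervals nearest to it. Metap1d (chr2:71453088-71453387, plus strand, 67.0% GC) is shown because, of these 4 windows, it is the one that overlapped an interval. For Dlx6os1, an RNA gene transcribed from the stretch between Dlx6 and Dlx5, the start inside that stretch is shown (chr6:6869484-6869783, minus strand, 35.7% GC). Capitals mark TAATT or its reverse complement AATTA, and the pair of matches in TAATTA overlap.
Dlx1 promoter: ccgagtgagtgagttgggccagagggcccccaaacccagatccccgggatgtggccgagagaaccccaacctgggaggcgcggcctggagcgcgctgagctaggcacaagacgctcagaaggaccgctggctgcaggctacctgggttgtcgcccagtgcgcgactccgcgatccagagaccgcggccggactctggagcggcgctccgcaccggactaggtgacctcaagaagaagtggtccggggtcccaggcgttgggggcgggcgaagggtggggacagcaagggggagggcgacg
Dlx2 promoter: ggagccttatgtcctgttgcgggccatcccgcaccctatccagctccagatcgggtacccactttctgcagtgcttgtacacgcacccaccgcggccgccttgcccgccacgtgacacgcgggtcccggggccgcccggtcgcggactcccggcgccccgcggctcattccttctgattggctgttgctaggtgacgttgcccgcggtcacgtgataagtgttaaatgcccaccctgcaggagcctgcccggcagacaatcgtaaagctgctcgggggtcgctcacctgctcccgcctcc
Metap1d promoter: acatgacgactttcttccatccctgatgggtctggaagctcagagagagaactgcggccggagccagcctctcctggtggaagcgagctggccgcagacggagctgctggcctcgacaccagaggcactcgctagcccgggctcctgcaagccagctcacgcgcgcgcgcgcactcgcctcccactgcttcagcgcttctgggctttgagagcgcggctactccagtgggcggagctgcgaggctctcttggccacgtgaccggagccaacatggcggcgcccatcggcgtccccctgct
Dlx6os1 promoter: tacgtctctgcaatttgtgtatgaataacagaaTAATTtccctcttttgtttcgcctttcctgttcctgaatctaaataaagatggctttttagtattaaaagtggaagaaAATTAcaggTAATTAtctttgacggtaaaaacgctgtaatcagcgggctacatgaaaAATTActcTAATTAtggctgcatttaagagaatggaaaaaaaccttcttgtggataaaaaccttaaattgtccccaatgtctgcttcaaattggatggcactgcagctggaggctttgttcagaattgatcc

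The Dlx1 and Dlx2 windows held no TAATT on either strand, and neither did the Metap1d window. The Dlx6os1 window held 7 matches and 2 TAATTA runs. Of 32851 promoters of the same length, 8881 (27.0%) held at least 1 TAATT and 46 (0.140%) held 7 or more. The median GC content of all promoters was 52.7%, against 35.7% in the Dlx6os1 window, and its part in the number of matches was not tested. The second Dlx6os1 start in the table, at 6861683, had 4 matches, that of Dlx6os2 had 1 and that of Dlx4os had 0. Of these 6 windows of Dlx and Dlx noncoding genes, none overlapped an interval, against 7.25% of all promoters. A match of letters is a description and not a binding site, and its absence from a window says nothing about binding nearby.

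None of the 6 Dlx genes had a Myc-Tag interval in the gene or within 10 kb of it, by an overlap of at least 1 bp. Over all protein-coding genes the share was 19.0%, and with 6 genes no difference from that share was tested. Within 100 kb, 2 of the 6 genes, Dlx1 and Dlx2, had an interval, against 44.7% of all protein-coding genes. Taken by pair, 0 of 3 pairs had an interval within 10 kb and 1 of 3 had one within 100 kb. Of 14583 neighbouring pairs of protein-coding genes that lie at most 50 kb apart, 29.8% had an interval within 10 kb and 53.8% had one within 100 kb. The stretch between the genes, 9.43 kb for Dlx1 and Dlx2, 9.83 kb for Dlx5 and Dlx6 and 15.2 kb for Dlx3 and Dlx4, held no interval in any of the 3 pairs, and 9.31% of the neighbouring pairs held one. With 3 pairs and 6 genes that share neighbourhoods, these counts are not independent.

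**Figure D1:**
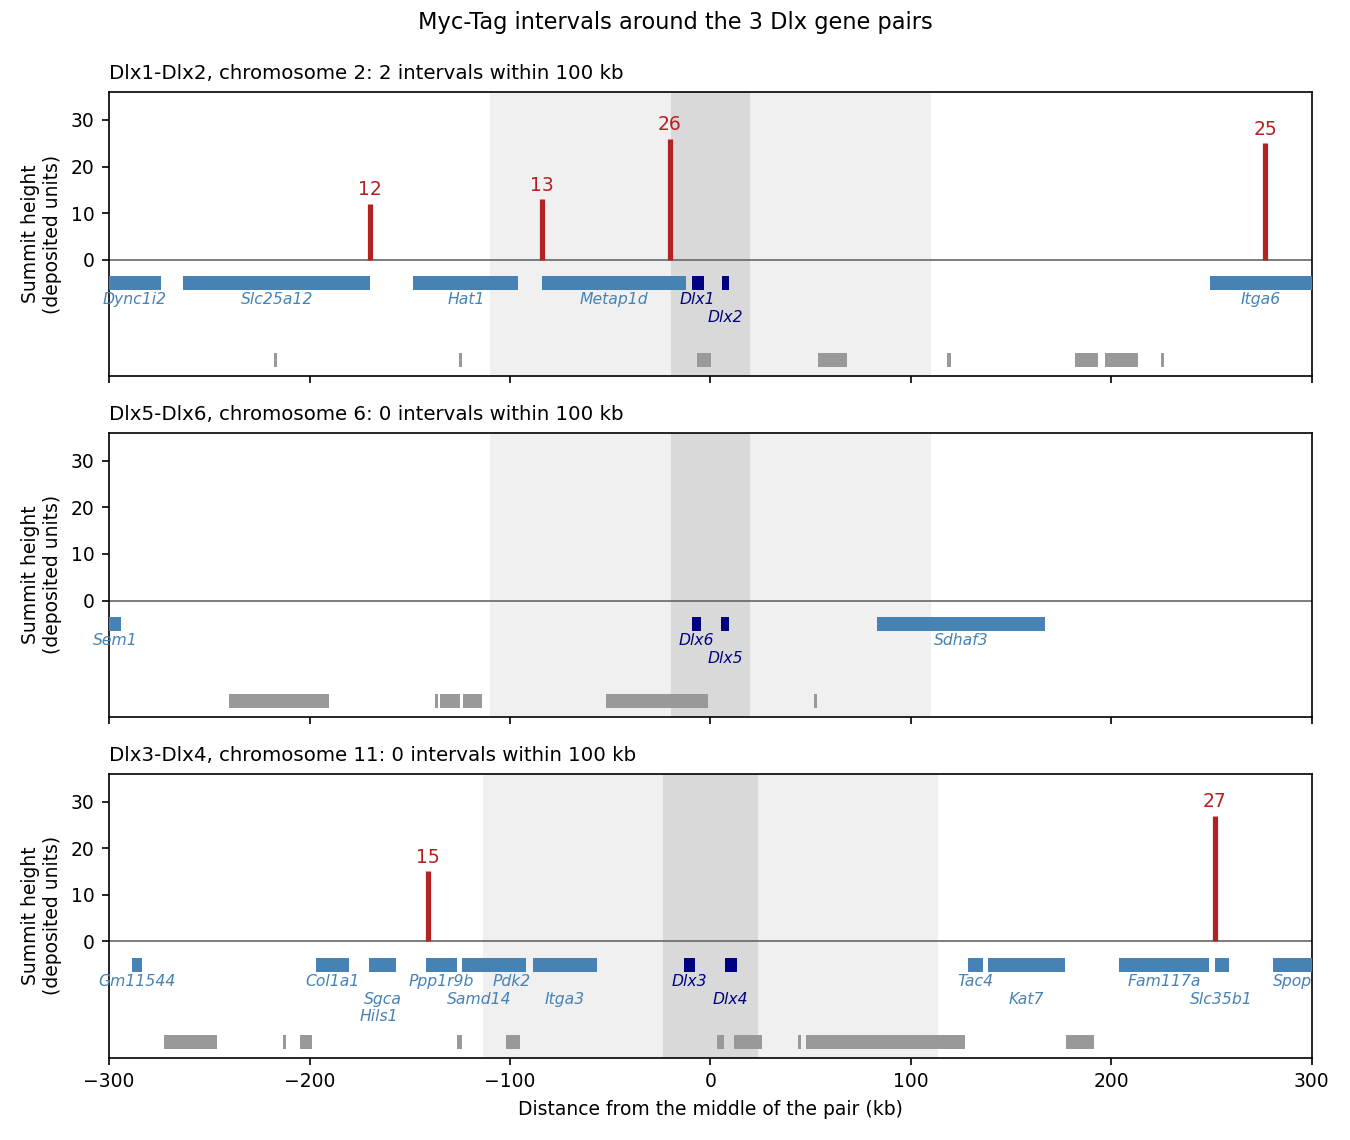
Myc-Tag intervals within 300 kb of the middle of each Dlx pair. Red stems give the summit height in deposited units, blue bars protein-coding genes, dark blue bars Dlx genes and grey bars other genes, and the dark and light shading marks 10 kb and 100 kb around the pair. The dark shading holds no summit in any panel, and the stem of height 26 in the top panel stands at its edge, 10.6 kb from Dlx1.

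The nearest interval to any Dlx gene lay beside Dlx1, a regulator of interneuron development. Dlx1 spans chr2:71528113-71533981, and the interval at chr2:71516952-71517543 ended 10.6 kb below it. This interval was 592 bp wide with its summit at 71517184 and a height of 26, and 245 of the 3477 summits (7.05%) were taller. It lay inside Metap1d, the gene of a mitochondrial methionine aminopeptidase, 8.01 kb from the end of that gene that faces Dlx1. The gap from Dlx1 to the summit was 10.9 kb, so neither the edge nor the summit was within 10 kb.

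For Dlx2, the partner of Dlx1 in the forebrain, which spans chr2:71543408-71546754, the same interval was the nearest, at 25.9 kb. Of all protein-coding genes, 19.3% had a nearer interval than Dlx1 and 25.6% a nearer one than Dlx2. The second interval within 100 kb of this pair lay at chr2:71453016-71453761, at the other end of Metap1d. Its summit had a height of 13 and stood 65 bp outside the gene, and the gap from the interval to the pair was 74.4 kb. Both intervals of the pair were therefore at 1 neighbouring gene, the taller one inside it and the lower one at its start. Of the neighbouring pairs of the background, 27.5% had 2 or more intervals within 100 kb.

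Other genes within 100 kb of Dlx1 and Dlx2 carried no interval. Hat1, which encodes a histone acetyltransferase, was 11.4 kb from one, the antisense gene Dlx1as was 13.1 kb from one, and the noncoding gene Gm36857 was 73.8 kb from one. On the other side of the pair the next interval was 267 kb away, inside the integrin gene Itga6, with a height of 25. The stretch without an interval that contains the pair was thus 296 kb long.

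Dlx5 is the gene whose cDNA was the transgene, and it acts with Dlx6 in bone and jaw formation. The endogenous Dlx5 gene spans chr6:6877801-6882068, and its nearest interval was 962 kb away. Dlx6, at chr6:6863334-6867970, was 976 kb from the same interval, which lay at chr6:7844382-7844973 with a height of 13. Its summit was 584 bp from the start of C1galt1, a glycosyltransferase gene. The nearest interval on the other side was 2262 kb away at the start of Casd1, with a height of 15. The pair thus lay in a stretch of 3.24 Mb without an interval. Of 3456 such stretches in the genome, 191 (5.53%) were longer, and the median was 191 kb. The longer ones held 43.4% of the summed length of all stretches.

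Of all protein-coding genes, 83.7% had an interval nearer than that of Dlx5 and 83.9% one nearer than that of Dlx6. On chromosome 6 alone these shares were 89.3% and 89.5%. Within 1 Mb of the pair there was 1 interval, against 11 for Dlx1 and Dlx2 and 5 for Dlx3 and Dlx4. There were 7 protein-coding neighbours within 1 Mb, compared with 16 and 52 at the other pairs, so the Dlx5 and Dlx6 locus was also the poorest in genes. The assembly factor gene Sdhaf3 was 805 kb from an interval and the noncoding genes Dlx6os1 and Dlx6os2 were 973 kb and 979 kb from one. The small RNA gene Gm22155 was 920 kb from one. Copies of the transgene carry Dlx5 coding sequence, whose reads cannot be told apart from those of the Dlx5 exons. No interval was called over Dlx5 in either library.

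Dlx3 acts in skin, hair, tooth and bone, and Dlx4 is expressed in placenta and blood-forming tissue. Dlx3 (chr11:95120117-95125296) was 127 kb and Dlx4 (chr11:95140447-95146294) 148 kb from the nearest interval, at chr11:94991672-94992690 with a height of 15. This interval lay inside Ppp1r9b, a gene of a phosphatase-binding protein, 1.11 kb from its start. Of all protein-coding genes, 49.2% had an interval nearer than that of Dlx3 and 52.0% nearer than that of Dlx4, so both genes were near the middle of the genome-wide order. On chromosome 11 these shares were 61.3% and 64.9%.

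On the far side of the Dlx3 and Dlx4 pair, an interval 238 kb away covered the start of the transporter gene Slc35b1 with a height of 27. This was the tallest of the 7 summits that lay within 100 kb of a pair or flanked one, and 210 summits in the library (6.04%) were taller. The stretch around the pair without an interval was 391 kb. The protein-coding neighbours Samd14, Pdk2, a pyruvate dehydrogenase kinase gene, and Itga3, an integrin gene, were 16.7, 33.6 and 51.8 kb from an interval. The noncoding gene Dlx4os was 152 kb from one. The 5 other noncoding genes and pseudogenes within 100 kb, LOC115486429, Gm11513, Gm38659, Gm11514 and Gm11515, were 38.3 to 184 kb from one.

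**Figure D2:**
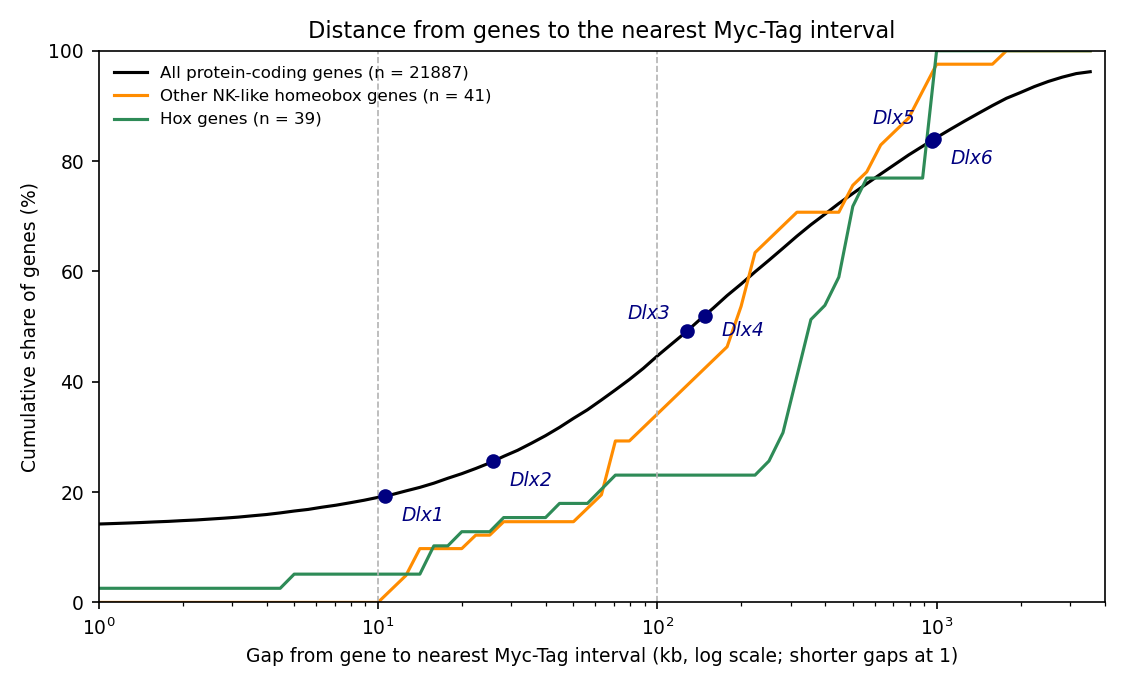
Cumulative share of genes (%) against the gap from the gene to the nearest Myc-Tag interval (kb, log scale) for all protein-coding genes, other NK-like homeobox genes and Hox genes, with the 6 Dlx genes as dots and dashed lines at 10 and 100 kb. Dlx1 and Dlx2 are left of 100 kb, Dlx3 and Dlx4 just right of it, and Dlx5 and Dlx6 near 1000 kb.

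None of the 7 intervals that lay within 100 kb of a Dlx pair or flanked one was called in the Input. The nearest Input interval was 27.1 Mb from Dlx1 and Dlx2, 3.66 Mb from Dlx5 and Dlx6 and 13.9 Mb from Dlx3 and Dlx4. The 3 chromosomes had like numbers of intervals per 100 protein-coding genes, 15.7 on chromosome 2, 16.2 on chromosome 6 and 17.7 on chromosome 11. The autosomes other than chromosome 15 together had 16.0. In all there were 280, 182 and 285 intervals on chromosomes 2, 6 and 11, and the part of these numbers in the gaps of the Dlx genes was not tested. Among coding neighbours within 1 Mb, those with a summit within 1 kb of a gene end were 5 of 16 at Dlx1 and Dlx2, 1 of 7 at Dlx5 and Dlx6 and 3 of 52 at Dlx3 and Dlx4. The share of all protein-coding genes by this rule was not computed. By a wider rule, an interval in the gene or within 1 kb of it, that share was 14.2%.

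**Figure D3:**
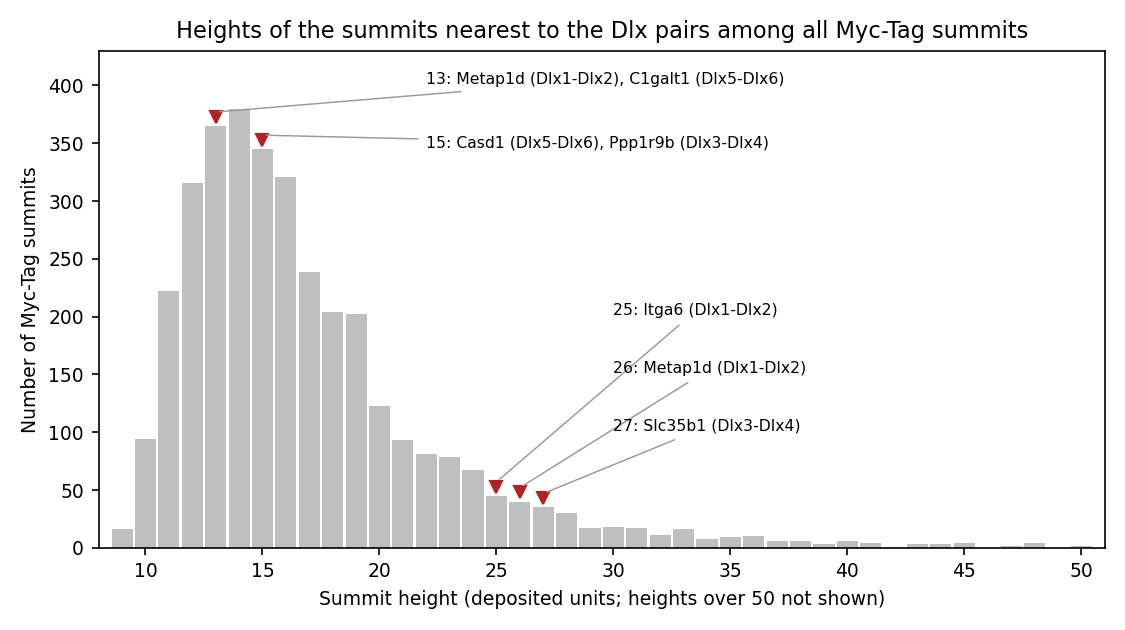
Number of Myc-Tag summits (y axis) at each summit height (x axis, deposited units, up to 50), with triangles at the heights of the 7 summits within 100 kb of a Dlx pair or flanking one. Heights of 13 and 15 are in the bulk of the library and heights of 25 to 27 in its upper tail.

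When the distance was widened step by step, 0 of 6 Dlx genes had an interval within 1, 2, 5 or 10 kb, 1 within 20 kb, 2 within 50 kb, 4 within 200 kb and 6 within 1000 kb. The shares of all protein-coding genes were 14.2% at 1 kb, 23.4% at 20 kb, 33.3% at 50 kb, 57.7% at 200 kb and 84.3% at 1000 kb. The genes of each pair share their nearest interval, so these steps are not independent.

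Other homeobox genes were counted by the same rule. By it, 19.0% of all protein-coding genes had an interval within 10 kb and 44.7% had one within 100 kb. Of 41 other NK-like genes, the wider class to which Dlx belongs, 0 had an interval within 10 kb and 14 had one within 100 kb (34.1%). The nearest was Lbx1, a muscle and spinal cord regulator, at 10.98 kb, followed by Barhl2, a neural regulator, at 11.4 kb. The T-cell leukemia homeobox genes Tlx2, Tlx3 and Tlx1 were 13.1, 52.9 and 64.2 kb from an interval. Of 39 Hox genes, which pattern the body axis, 2 had an interval within 10 kb and 9 within 100 kb (23.1%). The 2 were Hoxc6 and Hoxc8, which share 1 interval, chr15:102998938-102999656, with a height of 15. Chromosome 15 carried 33.9 intervals for every 100 protein-coding genes, and whether this density bears on the Hoxc6 count was not tested. The median gap was 138 kb for the Dlx genes, 186 kb for the other NK-like genes, 353 kb for the Hox genes and 133 kb for all protein-coding genes. The genes of a cluster share intervals, so the genes of each list are not independent.

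Genes of the pathways around Dlx proteins were at or below the background share of 19.0% at 10 kb, apart from 1 list that was just above it. Bone morphogenetic protein (BMP) signals induce Dlx genes in bone and limb. Of 11 BMP ligand, receptor and Smad genes, 2 had an interval within 10 kb (18.2%), the ligand gene Bmp7 with a height of 15 and the signal transducer gene Smad5 with a height of 16. The Bmp7 summit was 129 bp inside the gene boundary at the higher coordinate, while the Smad5 interval was 4.55 kb outside the gene. Of 6 genes for proteins that bind Dlx proteins, such as Msx1 and Msx2, 0 had an interval within 10 kb and 1, Grip1, had one within 100 kb, at 25.2 kb. Over all protein-coding genes, 44.7% had one within 100 kb. Msx1 and Msx2 are also among the other NK-like genes counted above, so those lists overlap.

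Of 15 genes described as depending on Dlx proteins in forebrain, bone or other tissue, 3 had an interval within 10 kb. Gad1, the gene of an enzyme that makes the transmitter GABA, had an interval at chr2:70559367-70559988 with a height of 16. It was 1.31 kb from Gad1 and overlapped the antisense gene Gad1os. Sp7, which encodes a transcription factor of osteoblasts, had an interval of height 26, which lay 5.55 kb from Sp7 and overlapped Aaas, and Sp7 is on chromosome 15. Irs2, an adaptor gene of insulin signaling, had an interval of height 14 across its boundary at the higher coordinate. Its summit was 447 bp outside the gene, and the paper places Dlx5 binding at the Irs2 promoter. The paper reports Irs2 as a Dlx5 target on these same data, after earlier work by its authors in ovarian carcinoma cells. The Irs2 interval is therefore not independent evidence.

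**Figure D4:**
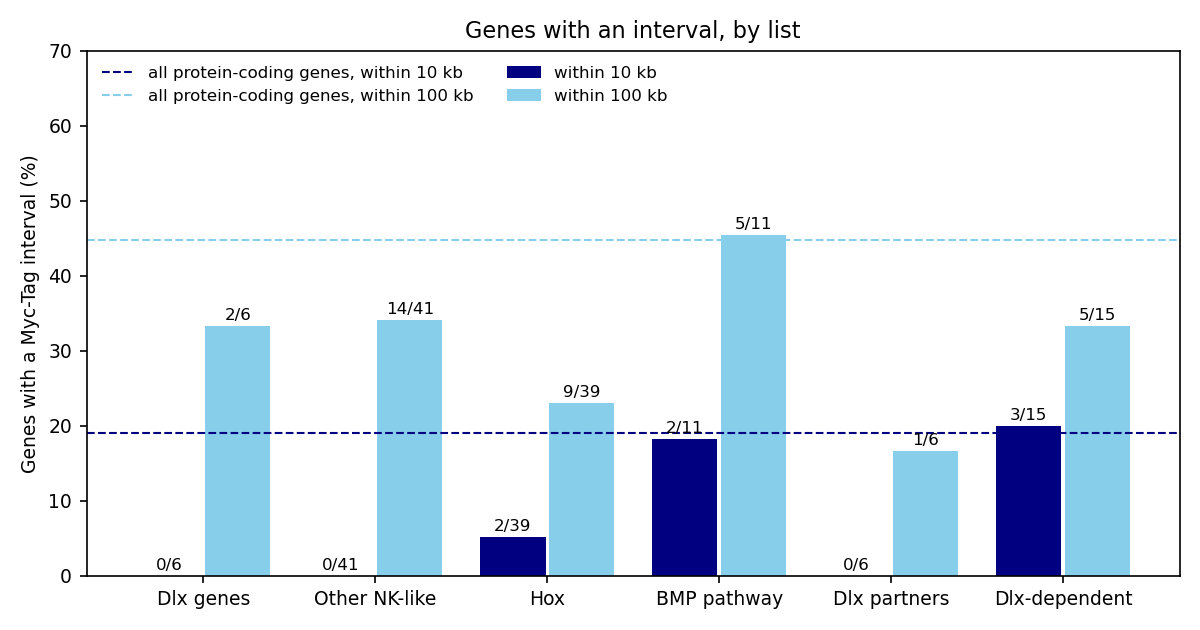
Share of genes (%) with a Myc-Tag interval within 10 kb (dark bars) and 100 kb (light bars) in 6 lists, with the counts above the bars and dashed lines at the shares of all protein-coding genes. The Dlx, other NK-like and Dlx partner lists have no gene within 10 kb, and every list but the BMP pathway is below the light dashed line. Msx1 and Msx2 are in both the other NK-like and the Dlx partner lists.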

How the data were processed

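ChIP-seq was run on 1 Myc-Tag and 1 Input library of Lck-Dlx5 lymphoma. Per the methods, Active Motif sequenced on an Illumina GA II and called peaks by MACS p-value. The submitters' processing notes name BWA and mm9, without version. The browser view of the study is marked mm10, and 58.4% of the deposited summits (2030 of 3477) lay within 1 kb of a protein-coding gene end in GRCm38, so mm10 was used. That share was not computed for mm9, so by itself it cannot decide between the builds. All gaps rest on this choice. The authors deposited summits, intervals and active regions, and the value of each summit is a score, its height, with unstated normalization. The 3477 active regions were identical to the Myc-Tag intervals.

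Interval starts were converted to count from 1, and summits are as deposited. Summits were joined to intervals, and gaps were measured from gene bodies of the RefSeq GRCm38.p6 table. Background pairs were neighbouring protein-coding genes at most 50 kb apart. The text names all Dlx genes, all genes within 100 kb of a pair, the genes at the flanking intervals and the listed genes within 10 kb of an interval, with a few nearest homeobox genes and Grip1 chosen after their values were seen. Members and lists were chosen with earlier results of these data known. No test was run, because each group is 1 library. Alternatives were other height, distance, overlap and background choices. Python 3.11.15, numpy 2.4.6, pandas 2.3.3 and matplotlib 3.10.9 were used, and the scripts were tested on simulated data. Sequences of the intervals, Dlx proteins, the promoters of Dlx3 to Dlx6 and the expression arrays were not analysed here.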

Additional observations from a re-analysis of the deposited data

How the results depend on the processing

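No paired analysis was possible because there is 1 library in each group and no result comes from a test. With intervals of at least the median height of 16, with intervals called in the Input left out, with the larger share of an interval or its summit required inside the region, and with active regions in place of intervals, the counts of Dlx genes and of Dlx pairs within 10 kb and within 100 kb were as reported. Under the height limit, the intervals within 100 kb of Dlx1 and Dlx2 fell to 1. The nearest interval moved to 259 kb for Dlx3, 238 kb for Dlx4, 1327 kb for Dlx5 and 1341 kb for Dlx6. The Hox, BMP pathway and Dlx-dependent counts within 10 kb became 0, 1 and 2. By the same limit, the share of all protein-coding genes became 10.7% within 10 kb and 28.7% within 100 kb. At 100 kb, the 2 of 6 Dlx genes (33.3%) were thus above that share, but below the 44.7% of the main setting. In place of 10 kb, 20 kb gave 1 Dlx gene and 1 pair and 50 kb gave 2 genes and 1 pair. In place of 100 kb, 200 kb gave 4 genes and 2 pairs. The 10 kb call of Dlx1 thus rested on a margin of less than 1 kb. With 100 kb in place of 10 kb, the lists had 14 other NK-like, 9 Hox, 5 BMP pathway, 1 Dlx partner and 5 Dlx-dependent genes. At that distance 44.7% of all protein-coding genes had an interval. TAATTA in place of TAATT was held by 5.29% of promoters. Distances from gene starts were available for 2 of 6 Dlx genes, those with a promoter entry. From the start to the nearest summit, the distance was 12.3 kb for Dlx1 and 29.6 kb for Dlx2. Over the protein-coding genes with a promoter entry, 14.97% had an interval within 10 kb of a start. The main limits are the single library, the unknown depth, the unstated unit of height, the calling threshold and the naming of 2 genome builds.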

Other observations

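The classical Dlx motif was also counted in all promoters, with and without a Myc-Tag interval. TAATT, on either strand, was in 335 of 2383 promoters with an interval (14.1%, 95% Wilson interval 12.7 to 15.5%) and in 8546 of 30468 without one (28.0%, 27.5 to 28.6%). The median GC content was 63.3% in the promoters with an interval and 52.0% in the others, and its part in the difference was not tested. These windows of 300 bases do not hold the intervals as a whole, and genes with several starts are counted more than once. By motif search in the same ChIP-seq, the paper assigns most of the Dlx5 consensus to this motif. That is another measure, and the promoter counts do not bear on it. The Wilson intervals cover counting error only.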
